A study of Mus musculus with 6 samples.

Results

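The regions described here are stretches of open chromatin that lay in introns and were found in palatal epithelium alone. They were chosen by the presence of peaks: peaks of the 6 libraries were joined wherever they shared 1 bp or more, and a merged region was taken when all 3 epithelium libraries and none of the 3 mesenchyme libraries had a peak in it, when it overlapped no start of a protein-coding transcript, and when its midpoint lay in the body of a protein-coding gene but in no exon of one. The rule gave 4361 regions in 2441 host genes, out of 707876 merged regions, 291472 intronic ones away from starts and 10206 regions that were epithelium-only at any position. The libraries are ATAC-seq libraries, in which the Tn5 transposase cuts and tags accessible DNA, from C57BL/6 mouse embryos at E14.5. Palatal shelves were treated with trypsin and the epithelium, basal layer and periderm together, was peeled off, and the residual tissue, described as largely mesenchymal, made the other group. No treatment or allele distinguished the groups, each library came from pooled shelves, and the 3 libraries of a group are called biological replicates, with sources that differ on the number of embryos or shelves behind each. Each of the 6 peak lists held 270003 to 349322 peaks, of which 111322 to 144957 lay in introns away from starts. The depth in reads is unknown, a missing peak is not closed chromatin, and bulk libraries cannot tell more cells of a type from more open chromatin per cell.

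Introns hold many of the enhancers of a vertebrate genome, and an enhancer in an intron may act on its host gene or on a neighbour, so a host is a position here and not a target. The palatal epithelium is a thin sheet of basal cells, which express Trp63 and keratins and sit on a basement membrane, covered by the flat cells of the periderm. Factors known to bind enhancers of such epithelia include Trp63, the grainyhead-like factors, the Fos and Jun factors of AP-1, Tead, Klf, Tfap2, Gata, Cebp and Ets factors.

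The central 200 bp of 7 of the regions are shown because their hosts belong to lists of basal, junction, periderm, transcription factor or cleft genes and because they ranked high in the number of different motifs among those factors. Each host was given a single window. The Nfib, Dsp and Trp63 windows held 2 different motifs each, a number that other windows of these lists reached too, such as that of Perp at chr10:18850166-18850398. They are given 5′ to 3′ on the plus strand of GRCm38.p6 (mm10), and capitals mark matches on either strand to these 9 motifs: TGANTCA for AP-1, AACNNGTT for the grainyhead-like factors (GRHL), GGAATG for TEAD, CCACNCCC for KLF, GCCNNNGGC for TFAP2, AGATAA for GATA, TTGCNNAA for CEBP, CNGGAAGT for ETS, and that of TP63, given by name.
Cdh1, chr8:106636605-106636804: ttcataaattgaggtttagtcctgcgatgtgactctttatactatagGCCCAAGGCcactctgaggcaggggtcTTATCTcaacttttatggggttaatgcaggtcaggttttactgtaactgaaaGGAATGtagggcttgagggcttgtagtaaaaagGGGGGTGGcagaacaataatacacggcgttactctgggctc
Marveld3, chr8:109951507-109951706: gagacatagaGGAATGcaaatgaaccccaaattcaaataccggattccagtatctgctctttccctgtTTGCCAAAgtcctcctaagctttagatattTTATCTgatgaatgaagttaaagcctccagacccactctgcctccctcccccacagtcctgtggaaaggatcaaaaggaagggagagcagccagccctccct
Arhgef26, chr3:62349215-62349414: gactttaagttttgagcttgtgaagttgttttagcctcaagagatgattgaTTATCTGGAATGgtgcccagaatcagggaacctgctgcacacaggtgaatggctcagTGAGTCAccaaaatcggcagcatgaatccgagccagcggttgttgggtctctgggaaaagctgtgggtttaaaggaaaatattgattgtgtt
Thada, chr17:84325708-84325907: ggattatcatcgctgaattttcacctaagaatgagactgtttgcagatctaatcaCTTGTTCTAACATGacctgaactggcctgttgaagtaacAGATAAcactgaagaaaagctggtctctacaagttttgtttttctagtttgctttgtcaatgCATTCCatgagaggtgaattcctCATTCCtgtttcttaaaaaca
Nfib, chr4:82428279-82428478: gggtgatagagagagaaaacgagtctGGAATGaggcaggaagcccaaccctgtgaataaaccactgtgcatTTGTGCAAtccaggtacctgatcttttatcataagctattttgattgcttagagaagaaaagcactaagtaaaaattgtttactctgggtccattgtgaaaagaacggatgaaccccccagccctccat
Dsp, chr13:38159268-38159467: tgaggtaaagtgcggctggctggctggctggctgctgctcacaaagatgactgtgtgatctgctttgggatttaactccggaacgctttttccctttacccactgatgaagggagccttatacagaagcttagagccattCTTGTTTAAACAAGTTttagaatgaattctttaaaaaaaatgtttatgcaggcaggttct
Trp63, chr16:25780150-25780349: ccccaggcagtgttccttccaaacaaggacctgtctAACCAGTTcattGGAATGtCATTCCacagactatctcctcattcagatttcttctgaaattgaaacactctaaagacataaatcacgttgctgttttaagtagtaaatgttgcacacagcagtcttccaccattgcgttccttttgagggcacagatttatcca
A match is a description of the letters and not a site. The Cdh1 window, in intron 2 of 15 of the E-cadherin gene, held 4 different motifs: TFAP2, GATA, TEAD and KLF. At Dsp, which encodes desmoplakin, the desmosome plaque protein, the capitals in intron 1 of 23 are a TP63 and a GRHL match that overlap each other. The Trp63 window held GRHL beside a pair of TEAD matches on opposite strands, 21666 bp upstream of the start of the principal, shorter transcript. Its region had peaks of 756, 780 and 645 bp in epithelium libraries 1, 2 and 3, that of Cdh1 346, 493 and 220 bp and that of Nfib 1289, 1084 and 1187 bp. The Arhgef26 window, in intron 3 of 13 of a gene for an exchange factor of small GTPases, held a GATA match directly followed by a TEAD match, and an AP-1 match further on. The Thada window lay in intron 28 of 37, the Nfib window in intron 2 of 11, and the Marveld3 window outside the introns of its principal transcript. Among all 87649 intronic regions found in at least 3 libraries, the same window held a match for TEAD in 11.9%, AP-1 in 6.65%, TP63 in 6.59%, GRHL in 2.37%, KLF in 9.78%, TFAP2 in 7.83%, GATA in 6.13%, CEBP in 6.01% and ETS in 3.50%.

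In epithelium libraries 1, 2 and 3 the peaks that chose the regions had median widths of 401, 467 and 363 bp, with interquartile ranges of 304 to 566, 338 to 639 and 283 to 497 bp. In 2339 regions, 53.6% of them, all 3 peaks were at least 300 bp wide, and in 633 all 3 were at least 500 bp wide. The epithelium-only intronic regions made up 4.98% of the 87649 intronic regions found in at least 3 libraries, beside 3.97% for the 3476 mesenchyme-only ones and 21861 regions found in all 6. These shares are what the rule selects and are not tested. Just inside the rule the median epithelial peak was 405 bp. Just outside it, 3914 intronic regions had all 3 epithelium and 1 mesenchyme library, with median peaks of 373 bp in epithelium and 316 bp in mesenchyme, and 10520 had 2 epithelium and no mesenchyme library, with a median of 288 bp. Ranked by the narrowest of their 3 peaks, the widest regions lay in Senp7, Abcc4 and Focad, at 1626, 1555 and 1448 bp. They were followed by a region in an intron of Disp1, which releases hedgehog ligands from cells, at chr1:183163828-183165291 with peaks of 1375, 1425 and 1387 bp. The 10 widest also held regions in introns of Col8a1, a short-chain collagen, at chr16:57746908-57748305 with 1258, 1341 and 1240 bp, and of the interleukin receptor gene Il1r1 at chr1:40279031-40280636 with 1213, 1559 and 1175 bp. Of the same 10 widest, Pdlim1 had peaks of 1219, 1284 and 1165 bp, Rad51b 1239, 1398 and 1205 bp, Col14a1 1480, 1385 and 1167 bp, and Sema3d 1373, 1668 and 1165 bp.

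Every library took part in choosing the epithelium-only intronic regions, so no library can check these regions themselves. The way of choosing was looked at instead, on larger sets that include other regions. Intronic regions were chosen on 2 epithelium and 2 mesenchyme libraries, in all 9 combinations, and sought in the epithelium and the mesenchyme library left out. Of the 8728 to 12111 regions chosen for epithelium, 50.8% to 67.1% had a peak in the epithelium library left out and 21.6% to 29.2% in the mesenchyme library left out. The epithelium library was ahead in all 9 combinations, by 21.7 to 44.7 percentage points. With epithelium 2, the library with the longest list, left out, 66.5% to 67.1% were found again, and with epithelium 1 or 3 left out 50.8% to 51.7%. Regions chosen for mesenchyme in the same way were found in the mesenchyme library left out at 44.3% to 53.3% and in the epithelium library left out at 23.3% to 38.7%. The combinations share libraries, so no test was made.

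The marker genes of epithelium held a larger share of these regions than those of the other cell types. Of 75 kept intronic regions (those in at least 3 libraries) in 12 epithelial marker genes, 19 were epithelium-only, 25.3%, and 1 was mesenchyme-only. Over all protein-coding genes the shares were 4.91% and 3.95%, counting a region once for each host. In 12 mesenchyme markers 1 of 66 kept regions was epithelium-only, at Prrx2, and 5 were mesenchyme-only. A short list of endothelial markers held 1 of 69, at Pecam1, immune cell markers 1 of 47, at Cx3cr1, muscle markers 0 of 9 and nerve and glia markers 1 of 16, at Map2. Among the epithelial markers, Trp63 held 8, Perp and Dsp 3 each, Cdh1 and Grhl2 2 each and Esrp1 1, while Krt5, Krt14, Epcam, Grhl3 and Itgb4 held none. Introns of Krt14 and Krt5 span 2.63 and 3.63 kb, and they held 0 and 1 kept regions. These markers and the lists below were drawn up with earlier results of these data known.

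Per length of intron, Perp, Tmprss11e, Pak6, Ehf and Dsp led. Over all genes there were 0.459 epithelium-only regions per 100 kb of intron. The 10 densest hosts with at least 3 regions reached 6.30 to 29.7 per 100 kb, and 9 of them held no mesenchyme-only region. To hold none is usual for genes of their length. A mesenchyme-only region was hosted by 9.48% of genes with 10 to 50 kb of intron and 23.5% of those with 50 to 100 kb. Perp, a tetraspan protein of desmosomes, had the highest density, 29.7 per 100 kb: its body at chr10:18845020-18857073 has 10.1 kb of intron, and all 3 of its kept regions were epithelium-only. They lay in intron 1 of 2, at chr10:18846404-18846884 with peaks of 416, 423 and 367 bp in epithelium libraries 1, 2 and 3, at chr10:18847856-18848388 with 323, 531 and 360 bp, and at chr10:18850166-18850398 with 225, 233 and 199 bp. The first and the last held a TP63 match, the last also an AP-1 match, and the window of the second was 84.5% repeat sequence. Other peaks of the libraries in Perp numbered 3, 2 and 1 in epithelium and 1, 1 and 2 in mesenchyme, so the tissues overlapped outside these regions.

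Tmprss11e, a membrane-bound serine protease of squamous epithelia, held 4 of its 5 kept regions, 10.8 per 100 kb, in introns 1, 2 and 3 of 9. The region at chr5:86730479-86730995, with peaks of 481, 509 and 437 bp, held TP63 and TEAD matches, and the one at chr5:86722725-86723319 AP-1, TEAD and PITX matches. Ehf, an Ets family factor restricted to epithelia, held 3 of 4, all in intron 1 of 8 within 1275 to 3760 bp of an annotated start, and the widest had peaks of 802, 1029 and 468 bp at chr2:103293205-103294233. Dsp held 3 of 6, a pair in intron 1 and 1 in intron 11 of 23. Its other peaks numbered 12, 13 and 10 in epithelium and 6, 5 and 4 in mesenchyme, so here the tissues did not overlap outside the chosen regions either.

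Lgr4, a receptor for R-spondins that strengthens Wnt signals, held 6 of its 9 kept regions and 6.61 per 100 kb. Of these, 4 lay in intron 1 of 17, which spans 52.4 kb, 1 in intron 2 and 1 in intron 13. The region in intron 2, at chr2:109979290-109980283, had peaks of 833, 829 and 550 bp, and the one at chr2:109969600-109970389 had 573, 757 and 701 bp with GRHL and LEF matches. Other peaks of Lgr4 numbered 8, 11 and 11 in epithelium and 8, 3 and 6 in mesenchyme, with the lowest epithelium value equal to the highest mesenchyme value. Lrig3, a membrane protein with leucine-rich repeats, held 3 of 10 kept regions, all in intron 3 of 18. Edaradd, the adaptor of the ectodysplasin receptor, held 3 of 8 in introns 3, 4 and 5 of 5, with peaks of 748, 718 and 510 bp at chr13:12503085-12503839. Npnt, the basement membrane protein nephronectin, held 4 of 10, beside 1 mesenchyme-only region, and the kinase gene Pak6 and the BEN domain gene Bend5 held 3 of 6 each.

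**Figure D1:**
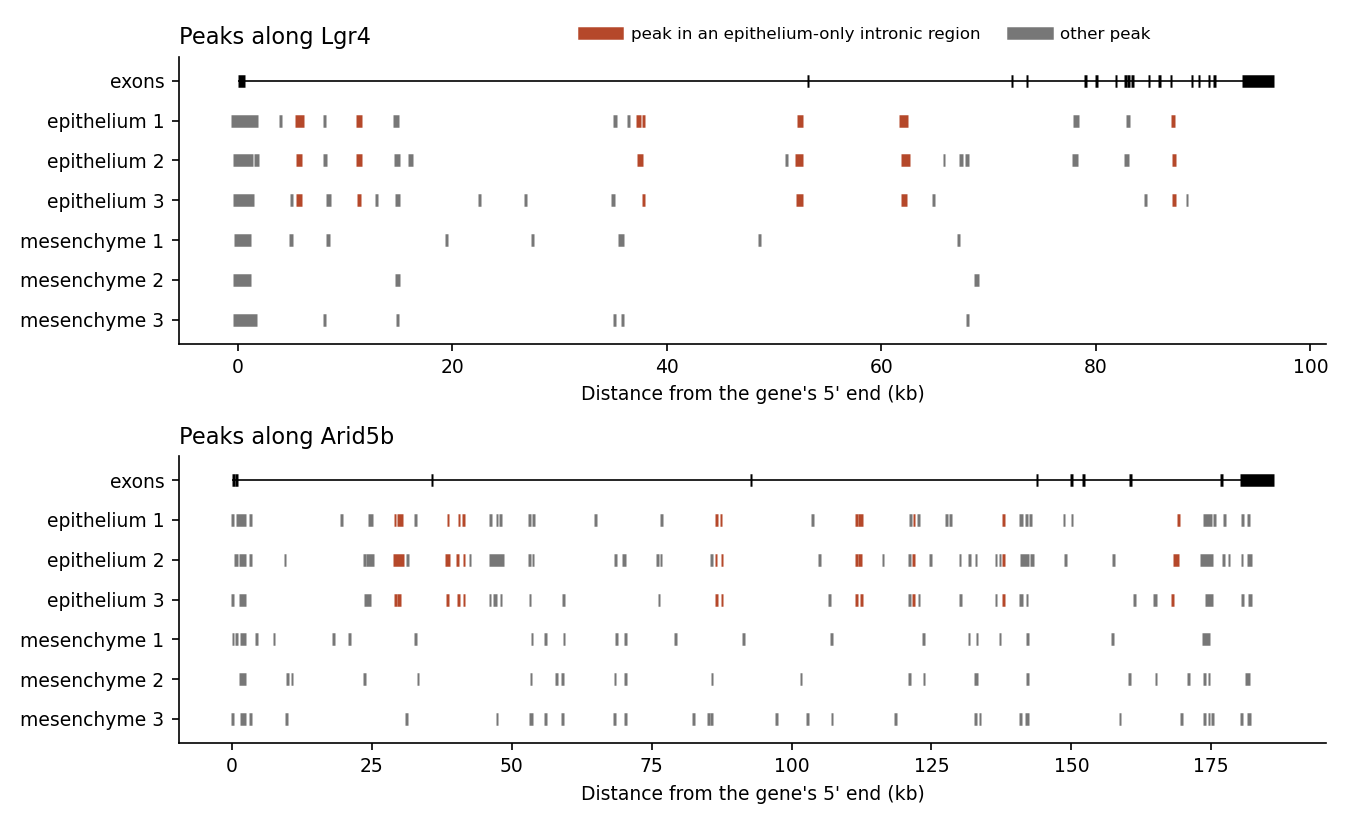
Peaks of each library (rows) along Lgr4 and Arid5b, by distance from the gene's 5' end in kb, with the exons of the principal transcript in the top row; red marks peaks in epithelium-only intronic regions, grey all others. Very narrow peaks have a minimum drawn width. The 6 regions of Lgr4 and the 11 of Arid5b recur in the 3 epithelium rows and have no peak in the mesenchyme rows.

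By number, long genes led. The host with the most regions was Auts2, a neurodevelopmental gene, with 15 of 113 kept regions in 1083 kb of intron, of which 1 lay in an intron of its principal transcript and the others in longer annotated transcripts. Foxp1, a forkhead repressor, had 14 of 72, Etl4, known as sickle tail, 14 of 41, Macrod2, a large hydrolase gene, 14 of 54, Zfhx3, a zinc finger homeobox factor, 13 of 137, and Arid5b, a DNA-binding chromatin cofactor, 11 of 23. Introns of the principal transcript held 8 of the 14 in Foxp1 and 11 of the 14 in Etl4. The other regions of Foxp1 also lay in the overlapping gene Gm20696. Bach2, a bZIP repressor, Maml2, a coactivator of Notch, Slc25a21, a mitochondrial carrier, Rad51b, a DNA repair factor, and Fgfr2 had 10 each. Myo16, Smyd3, Frmd4a, Sox5, Nrxn3 and Fhit had 9, and Ccdc192, Sema3d and Trp63 had 8. In 6 of these 20 hosts, Foxp1, Arid5b, Maml2, Ccdc192, Sema3d and Trp63, no region was mesenchyme-only. The same held for 45 of the 158 hosts with 5 or more regions, a similar share. The share of kept regions that were epithelium-only ranged from 2.07% at Fgfr2 to 80.0% at Sema3d, a secreted semaphorin that guides cells and axons. Arid5b had 47.8%, Trp63 61.5% and Ccdc192 42.1%. Other peaks of Sema3d numbered 9, 11 and 7 in epithelium and 6, 6 and 6 in mesenchyme, those of Etl4 66, 78 and 59 and 46, 56 and 53, and those of Arid5b 28, 34 and 21 and 23, 22 and 29. The tissues did not overlap at Sema3d and Etl4 and overlapped at Arid5b. Of the 20 hosts, Sema3d and Etl4 were the 2 with every epithelium library above, and Dsp was the 1 among the 10 densest. Over 8623 genes this held for 2.23%, with mesenchyme-only regions left out as well.

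**Figure D2:**
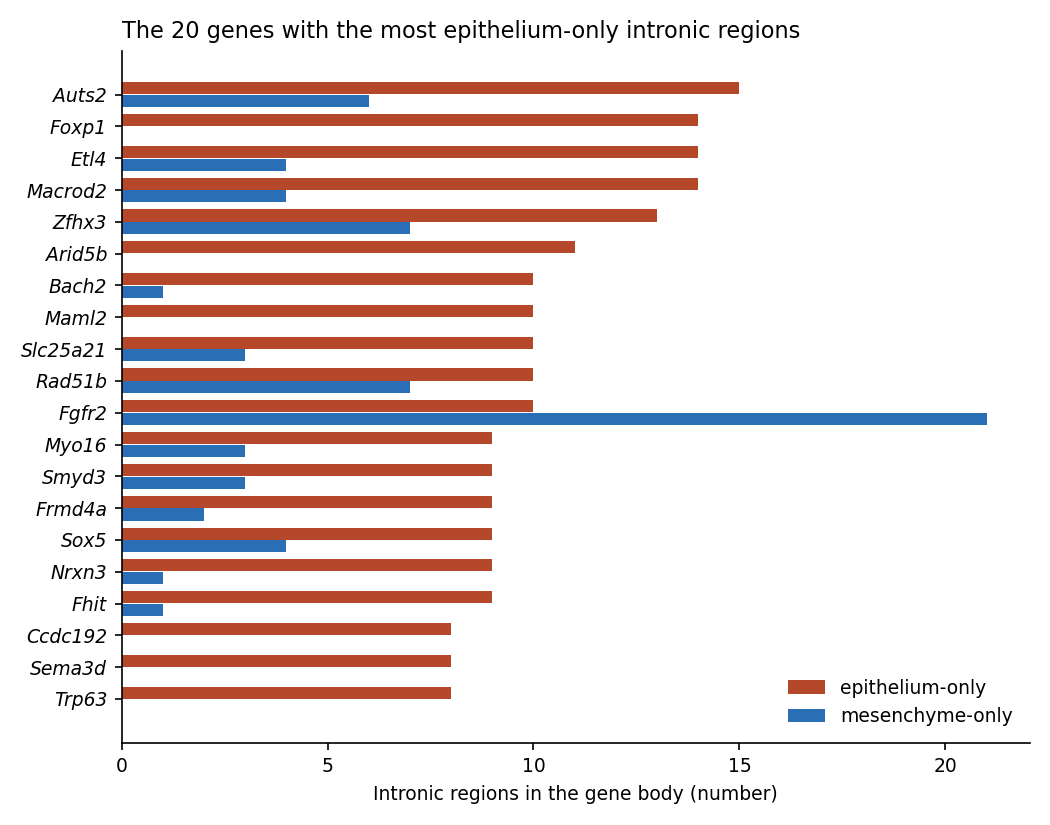
Bars give the number of epithelium-only (red) and mesenchyme-only (blue) intronic regions in the 20 genes that hosted the most epithelium-only ones, from Auts2 with 15 to Trp63 with 8. Fgfr2 is the host with more mesenchyme-only regions, 21 against 10, over an annotated body of 2961 kb.

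The Fgfr2 count rests on the annotation. GENCODE M21 gives Fgfr2, which encodes an Fgf receptor, a body of 2961 kb, whereas its principal transcript spans 102.5 kb. Of its 10 regions 2 lay in introns of the principal transcript (introns 6 and 2 of 17), and 8 beyond it. Several of these 8 also lay in other protein-coding genes, namely 5430419D17Rik, Cpxm2, Chst15 and Fam53b. In all, 414 of the 4361 regions lay outside the introns of their host's principal transcript, and 88 lay in more than 1 host. Several regions shared an intron: intron 3 of 21 of Etl4 held 10, intron 1 of 4 of Efna5, an ephrin, and of Maml2 held 7 each, intron 3 of 9 of Slc25a21 held 7, and intron 2 of 14 of Gli3 held 6, as did single introns of Lhfp, Lrmda and Smyd3. Another epithelium-only intronic region lay within 10 kb of 793, or 18.2%, of them.

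Host genes were long. Their introns had a median total of 104.2 kb, against 15.4 kb over the 20430 genes with an intron and 82.3 kb over the 2422 hosts of mesenchyme-only regions. The share of genes that hosted an epithelium-only region went from 0.763% of those with up to 10 kb of intron to 80.1% of those with over 300 kb, while mesenchyme-only regions were hosted by 1.22% and 62.5%. Among kept regions, the epithelium-only share was 1.51% in the shortest and 8.34% in the longest of these genes, and the mesenchyme-only share 2.33% and 4.89%. Of the 2441 hosts, 1535 had 1 region, 448 had 2 and 458 had 3 or more. Both kinds of region occurred in 900 genes, 36.9% of the hosts of epithelium-only and 37.2% of the hosts of mesenchyme-only regions.

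Peaks outside the chosen regions were counted in the host genes as well, leaving out epithelium-only and mesenchyme-only regions. Over 8623 genes with a mean of at least 5 such peaks per library, every epithelium library was above every mesenchyme library in 2.23%, and every mesenchyme library was above in 7.41%. Among the 1957 of them that hosted an epithelium-only intronic region the shares were 3.53% (69 genes) and 4.45% (87 genes), with mesenchyme still ahead. Among the 447 with 3 or more epithelium-only intronic regions the shares were 5.59% (25 genes) and 2.46% (11 genes), and among the 158 with 5 or more they were close, 3.80% (6 genes) and 3.16% (5 genes). Among the 260 with 3 or more mesenchyme-only intronic regions they were 0.769% and 10.4%. Counts were not scaled for list length, the hosts were long genes, and these comparisons were added after seeing the data and not tested.

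The gene lists are read against 4.91% of kept regions over all genes, with 3.95% for mesenchyme-only regions. Genes of the basal epithelium, which anchor the sheet to its basement membrane and renew it, held 31 epithelium-only regions among 244 (12.7%), in 8 of 22 genes. Besides Trp63 with 8 and Npnt with 4, Dst, which encodes a hemidesmosome linker, and Fras1, a basement membrane protein, held 5 each, the laminin gene Lama3 and the Fras1 adaptor Grip1 3 each and Frem2 2. Junction genes of desmosomes and adherens junctions held 16 of 128 (12.5%), beside 1 mesenchyme-only region, and 10 of 20 genes were hosts. Perp and Dsp had 3 each, Cdh1 and the plakophilin Pkp1 2 each, and Dsc2 and the desmoglein Dsg3 1 each. The list of epithelial splicing and plasticity genes, which also holds membrane serine proteases, had the highest share of the gene lists, 12 of 76 (15.8%). Of the 12, 4 lay in the protease gene Tmprss11e and 1 each in the protease genes Tmprss2 and Tmprss11a. Cdh1 and the RNA-binding protein gene Rbm47 held 2 each, and Marveld3 and the splicing regulator Esrp1 1 each. The Esrp1 region, at chr4:11370076-11371114 in intron 4 of 15, had peaks of 612, 440 and 459 bp and was its 1 kept region.

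Epithelial transcription factors held 29 of 280 (10.4%), in 11 of 35 genes: Trp63 and Nfib 8 each, Ehf 3, Tfap2a and Grhl2 2 each and Klf5 1. The regions of Tfap2a, at chr13:40718136-40719570 and chr13:40724862-40726225, had peaks of 727, 1217 and 727 bp and of 907, 1364 and 306 bp. Tight junction and polarity genes held 11 of 130 (8.46%), led by Patj with 4 and Pard3 with 3. The periderm list, genes of the surface layer and of differentiation, held 2 of 57 (3.51%), 1 each in Ripk4 and Arhgef26, a share below that of all genes. Its introns are short, with a median of 10.9 kb a gene, and its density of 0.559 per 100 kb lay above 0.459. Orofacial cleft genes held 36 of 904 (3.98%), and 26 of 420 (6.19%) without Fgfr2. After Fgfr2 and Trp63, Plekha7 held 4 and Tfap2a, Cdh1, Tgfa, Chd7 and Thada 2 each.

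Among signal pathways, the Egf receptor list held 21 of 174 (12.1%) and 7 of its 16 genes were hosts. The receptor gene Erbb4 held 7 of its 11 kept regions, Egfr, Lrig1 and Lrig3 held 3 each, and the ligand genes Tgfa and Nrg1 2 each. The Notch list held 18 of 212 (8.49%), in 3 genes: the coactivators Maml2 and Maml3 with 10 and 5 and the receptor Notch2 with 3. The ectodysplasin and NF-kB list held 8 of 96 (8.33%), led by Edaradd with 3 and Map3k7 with 2. The Bmp and Tgf-beta list held 22 of 297 (7.41%), led by the latent binding protein gene Ltbp1 with 5 and the coreceptor gene Tgfbr3 with 3. The Hippo list had 21 of 376 (5.59%) and as many mesenchyme-only regions, with Fat1 and Ptpn14 at 4 each. The hedgehog list had 13 of 264 (4.92%), of which the transcription factor Gli3 held 8. The Wnt list had 18 of 443 (4.06%), a share below that of all genes although Lgr4 held 6 and Lgr5 and Lef1 3 each, and the Fgf list 15 of 571 (2.63%), or 5.75% without Fgfr2.

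Lists of mesenchyme and of other cells also held epithelium-only intronic regions. Mesenchyme transcription factors held 15 of 204 (7.35%), beside 10 mesenchyme-only regions (4.90%), and of the 15 Meis2 and Tcf4, also active outside mesenchyme, had 5 each. Matrix genes of mesenchyme held 11 of 240 (4.58%), beside 17 mesenchyme-only regions (7.08%), with Col14a1 at 4 and the tenascin gene Tnc at 3. Osteogenic genes held 4 of 92 (4.35%), beside 9 mesenchyme-only regions (9.78%), 2 each in Runx2 and Supt3. In lists longer than the short marker lists above, endothelial genes held 5 of 180, immune genes 3 of 99 and muscle genes 2 of 126, and the 18 control genes held 1 of 13. Neuron and synapse genes held 155 of 1161 (13.4%), beside 65 mesenchyme-only regions (5.60%), and 35 of 42 were hosts, among them Macrod2 with 14, Nrxn3 with 9 and the guidance receptor gene Robo1 with 8. These are the longest genes of any list, with a median of 927 kb of intron, and per 100 kb they held 0.371 regions, below 0.459 over all genes. The order of the lists thus depends on whether regions or intron length is the denominator.

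**Figure D3:**
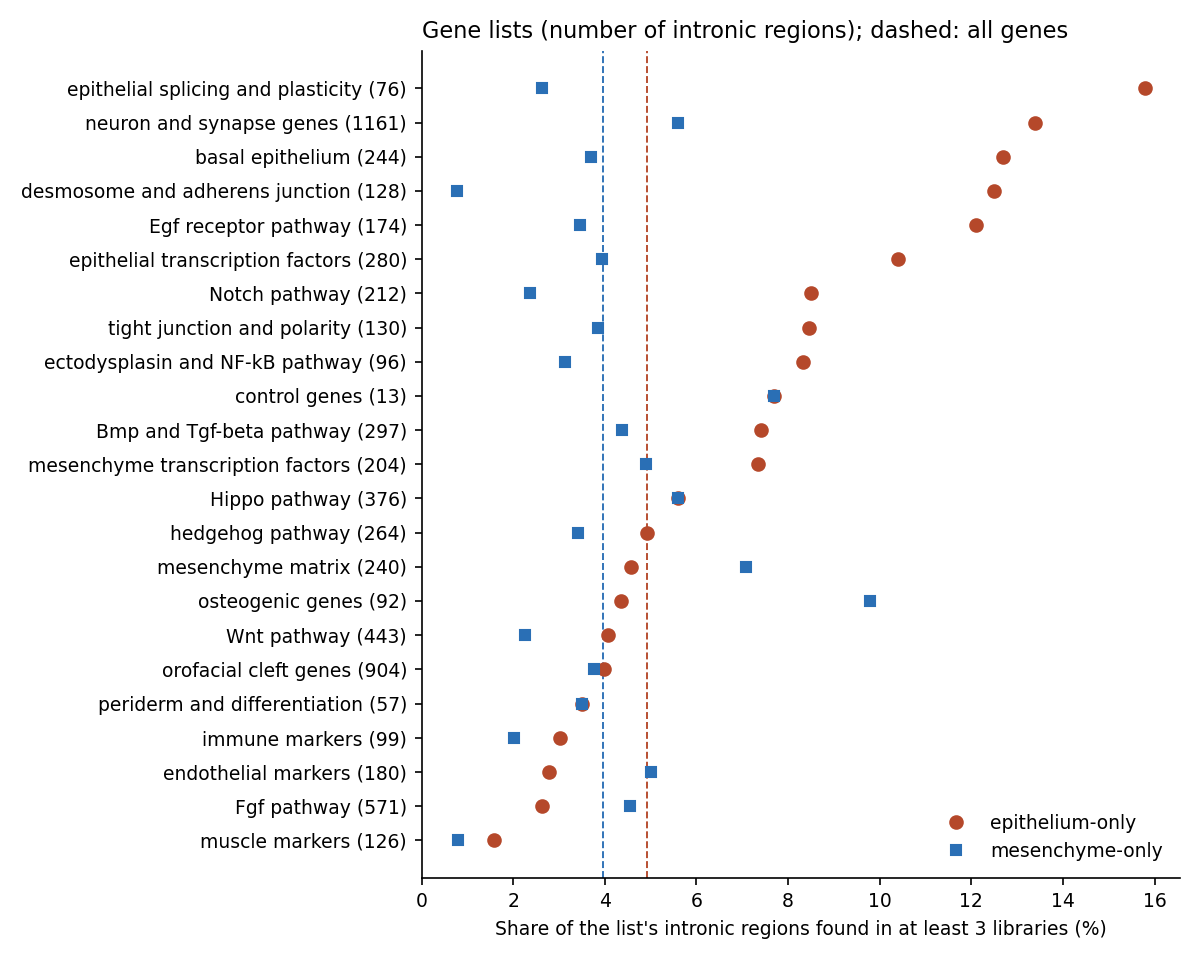
Points give, for each list shown, the share (%) of its intronic regions in at least 3 libraries that were epithelium-only (red circles) or mesenchyme-only (blue squares); the number of such regions stands in brackets and dashed lines mark all genes, 4.91% and 3.95%. Right of the red line at 12.5% to 15.8% lie basal and junction genes and the epithelial splicing list, which also holds serine proteases. Neuron and synapse genes lie there too, at 13.4%.

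The epithelium-only intronic regions lay further from starts and splice sites than other open regions, and in longer introns. The distances were not scaled to the length of the intron. Their median distance from the nearest annotated start of the host was 36351 bp, against 27580 bp for mesenchyme-only regions, 18714 bp for those in all 6 libraries and 21605 bp for all kept ones. They were within 10 kb of a start in 21.9%, against 30.8% of all kept regions, and beyond 100 kb in 24.4%, against 15.6%. The median distance to the nearest splice site was 5813 bp, against 3655 bp for mesenchyme-only and 2907 bp for all kept regions, and the introns that held them had a median length of 31543 bp, against 18563 and 15014 bp. A first intron held 28.8% of those that could be placed (1136 of 3947), close to 27.5% of all kept regions and 26.6% of mesenchyme-only ones. In the intronic peaks outside the chosen regions, first introns held 29.2%, 28.7% and 28.5% in the epithelium libraries and 28.5%, 28.0% and 28.3% in the mesenchyme libraries. The means of 28.8% ± 0.363 and 28.2% ± 0.271 (SD, n = 3 each) came from libraries that overlapped (exact permutation p = 0.2, two-sided).

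Their sequence was poorer in GC. The central 200 bp had a GC content of 46.0% ± 6.24 (SD over regions), against 50.5% ± 5.80 in mesenchyme-only regions, 53.8% ± 5.84 in those in all 6 libraries and 52.5% ± 5.63 over all kept regions. Repeats filled 14.4% of the window on average, against 17.6% in mesenchyme-only and 19.3% over all kept regions. Intronic peaks outside the chosen regions did not separate the tissues in GC, with 52.6%, 52.1% and 52.6% in epithelium and 52.7%, 52.4% and 52.8% in mesenchyme (exact permutation p = 0.4). Since GC differed between the kinds of region, motif shares are also given with the other regions weighted to the GC content of the epithelium-only ones.

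Matches for several epithelial factors were more frequent in the epithelium-only intronic regions than in the mesenchyme-only ones, with and without the weighting. GRHL matched 6.31% (95% exact binomial interval 5.60 to 7.07), against 1.35% of mesenchyme-only regions, or 1.79% with weighting, and 2.37% of all kept regions. SOX (ACAATGG) matched 5.43%, against 1.84% and 1.79% with weighting, TEAD 19.3%, against 12.9% and 13.7%, TP63 10.7%, against 6.47% and 6.06%, and AP-1 12.3%, against 7.57% and 8.92%. The E-box CAGGTG (EBOX1), read by Zeb, Snai and E-protein factors, matched 22.2%, against 13.5% and 8.89%, though all kept regions were close to it with 20.2%. MEIS (TGACAG) matched 20.1%, against 13.8% and 12.7%, PITX (TAATCC) 11.4%, against 6.04% and 6.64%, LEF (CTTTGA) 17.2%, against 11.7% and 12.9%, GATA 10.6%, against 6.50% and 8.75%, and CEBP 10.2%, against 6.79% and 8.49%. RUNX (TGTGGTT) went the other way, with 5.87% against 8.54%, or 11.5% with weighting, both above the 4.72% of all kept regions, and so did TFAP2, with 4.88% against 7.59% and 6.11%. For KLF (7.25% against 8.77%), FOX (TGTTTAC, 3.92% against 3.14%) and CTCF (by name, 0.321% against 0.230%) the direction turned with the weighting, to 6.21%, 4.65% and 0.331% in the mesenchyme-only regions. The homeobox core TAATTA (HOMEO) matched 4.04% against 4.43%, or 7.29% with weighting, a difference of -3.25 points. Without weighting its direction turned in a 400 bp window, as did that of IRF (CCGAAAC), with 0.482% and 0.288%. ETS matched 2.89% against 4.06%, or 3.75% with weighting, and OVOL (CCGTTA) 1.01% against 1.21%, or 1.27% with weighting. EBOX2 (CAGATG) matched 15.3% against 17.5%, and NFI (TTGGCA) 13.4% against 14.6%. With weighting these 2 stood against 18.4% and 16.7%, differences of -3.02 and -3.33 points. Both TFAP2 and NFI matches can share the letters GCC. Of the 3 controls with reordered letters, CTRL1 (TCANTGA) matched 6.81% against 6.13%, CTRL2 (GAGTAG) 6.33% against 6.96% and CTRL3 (ACANNTGT) 9.15% against 7.28%, so a difference of 1.87 points also arose with a control. With weighting, CTRL3 stood against 8.13%, and the differences at GATA and CEBP were 1.84 and 1.735 points. The intervals cover counting error over regions, which are not replicates, and no test was made.

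**Figure D4:**
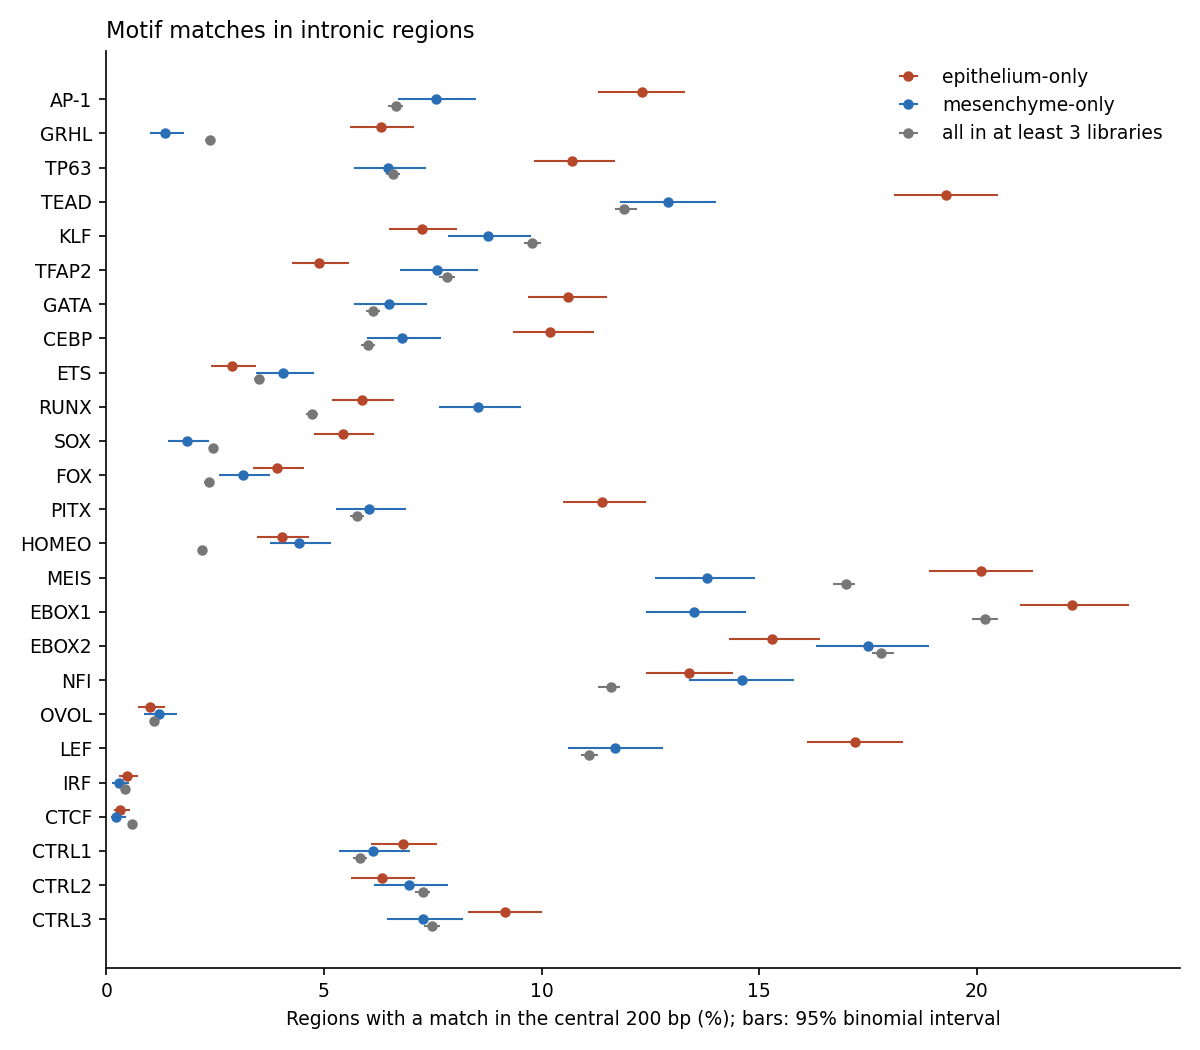
Points give the share (%) of intronic regions with a match in the central 200 bp, for epithelium-only (red), mesenchyme-only (blue) and all regions in at least 3 libraries (grey), with 95% exact binomial intervals as bars. GRHL, SOX, TEAD, TP63, AP-1 and PITX lie further right in the epithelium-only regions, with GRHL at 6.31% against 1.35%, and RUNX further left than in the mesenchyme-only ones.

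Matches for GRHL, TEAD and several other motifs were denser in the middle of the regions than towards their flanks. Per 1000 epithelium-only intronic regions and 50 bp, GRHL matches numbered 18.9 within 50 bp of the centre and 11.9 at 150 to 200 bp from it, and TEAD matches 58.0 and 39.1. TP63 fell likewise from 32.1 to 19.5, AP-1 from 35.8 to 23.8 and EBOX1 from 69.4 to 44.6. GATA changed little, from 30.2 to 28, and HOMEO rose from 9.97 to 13.1. In mesenchyme-only regions TEAD matches were also denser in the middle, with 38 and 27.8, and GRHL matches numbered 3.74 and 6.76. In the epithelium-only regions the control CTRL1 numbered 19.5 and 19, while CTRL2 went from 18 to 15.4 and CTRL3 from 26.4 to 21.6. At least 1 of the 9 motifs marked in the printed windows was present in all but 1801 of the 4361 regions (41.3% without any), against 52.7% without any of the mesenchyme-only regions, while 3.78% held 3 different ones and 0.550% held 4 or more, against 1.84% and 0.230%. GRHL and AP-1 matched together in 52 regions (1.19%), where the product of their shares is 0.774%, while TEAD and GRHL matched together in 50 (1.15%), where the product is 1.22%. In mesenchyme-only regions GRHL and AP-1 also exceeded their product, with 8 regions (0.230%) against 0.102%. TEAD and GRHL matched together there in 6 (0.173%), against 0.174%.

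Peaks that the rule did not choose were then compared between libraries. Of the intronic peaks outside epithelium-only and mesenchyme-only regions, GRHL matched 2.36%, 2.32% and 2.16% in epithelium libraries 1, 2 and 3 and 2.01%, 2.02% and 1.96% in mesenchyme libraries 1, 2 and 3. Every epithelium library was above every mesenchyme library, with means of 2.28% ± 0.104 and 2.00% ± 0.0301 (SD, n = 3 each; exact permutation p = 0.1, two-sided, adjusted p = 0.227). With 3 against 3 libraries no p below 0.1 can be reached, and the test measures the spread between these libraries alone. TEAD matched 12.2%, 11.9% and 11.6% against 11.3%, 11.1% and 11.2%, and EBOX1 21.0%, 20.6% and 21.1% against 19.7%, 19.8% and 19.7%. In the same direction and without overlap were AP-1 with means of 6.44% and 6.15%, TP63 with 6.69% and 6.43%, SOX with 2.58% and 2.31%, MEIS with 16.8% and 16.2%, GATA with 6.14% and 5.86%, and KLF with 10.3% and 10.2%. RUNX was below in every epithelium library, with 4.54%, 4.62% and 4.43% against 5.11%, 5.03% and 4.96%, and ETS likewise, with means of 3.46% and 3.61%. The exact permutation p was 0.1 and the adjusted p 0.227 for each of these 11 motifs, so none passed. Over the 25 motifs with controls, every epithelium library was above in 36% (9 motifs) and every mesenchyme library in 8% (2 motifs). The other 11 motifs and the 3 controls overlapped between tissues, the controls with differences from -0.0418 to 0.138 percentage points. The differences without overlap ran from 0.151 points at KLF to 1.14 at EBOX1, and from -0.154 at ETS to -0.501 at RUNX.

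**Figure D5:**
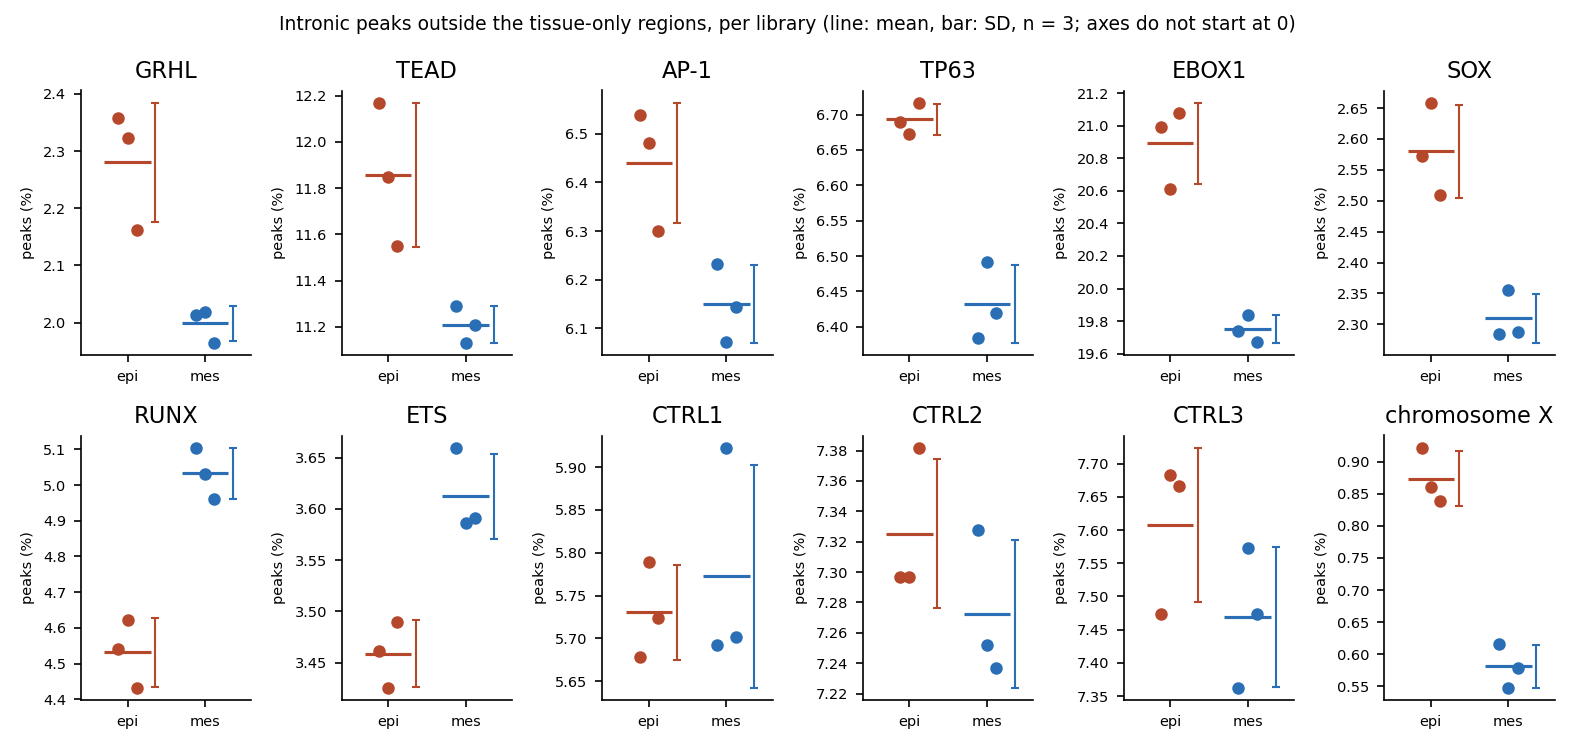
Each panel gives, per library, the share (%) of intronic peaks outside the tissue-only regions that match a motif or lie on chromosome X; points are libraries (epi, epithelium; mes, mesenchyme), lines means and bars SD (n = 3 each), and the axes do not start at 0. GRHL, TEAD, AP-1, TP63, EBOX1, SOX and chromosome X are higher in all 3 epithelium libraries, RUNX and ETS lower, and the 3 controls overlap.

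Chromosomes differed in the share of kept intronic regions that were epithelium-only. It was 14.8% on X (80 of 541), against 2.59% for mesenchyme-only regions (14 of 541), 8.78% on chromosome 3, 8.60% on 13 and 6.97% on 10, and 2.45% on chromosome 11 and 2.86% on 7. Hosts on X among the lists included Shroom2, an actin regulator, with 2 of 3 kept regions, Fgf13 with 2 of 4 and Eda, the ectodysplasin ligand, with 1 of 7. Chromosome X held 1.83% of the epithelium-only intronic regions. In the intronic peaks outside the chosen regions X held 0.922%, 0.861% and 0.838% in the epithelium libraries and 0.616%, 0.548% and 0.579% in the mesenchyme libraries, means of 0.874% ± 0.0433 and 0.581% ± 0.0340 (SD, n = 3 each). No library of one tissue overlapped the other (exact permutation p = 0.1, the smallest possible).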

How the data were processed

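ATAC-seq was compared between 3 epithelium and 3 mesenchyme libraries. Per the labels and the study's methods, the authors used Trimmomatic 0.38 for trimming, Bowtie2 for alignment to mm10 and SAMtools to remove duplicates, kept fragments under 100 bp and called peaks per library with MACS2 2.1.1. deepTools 2.0 is also named. For the peak calls no threshold was found in the sources. The deposited lists hold positions alone (chromosome, start, end), with no height, score or count.

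Peaks were merged and placed with GENCODE M21 (GRCm38.p6) in Python 3.11.15 (numpy 2.4.6, pandas 2.3.3), and sequences were read with pysam 0.24.0. An intron number refers to the principal transcript of a host. A match is an exact consensus match on either strand in the central 200 bp. Tests between libraries were two-sided exact permutation tests, adjusted by Benjamini-Hochberg over 25 motifs. Merging, motif search and tests were tested on simulated data. The authors ran DiffBind on reads, which peak positions cannot replace.

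Hosts were named as the 20 with the most regions, the 10 densest with at least 3 and up to 6 per gene list; regions as the 10 with the widest narrowest peak. Hosts named for introns shared by several regions, and host peaks outside the chosen regions, were chosen after the values were seen. Regions and lists (24, with 3 control motifs beside 22 motifs) were chosen with earlier results of these data known. A gene list, a sequence window and a marker gene are not reported here.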

Additional observations from a re-analysis of the deposited data

How the results depend on the processing

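The number of epithelium-only intronic regions depended on the rule. It was 4361, and 8275 when 1 mesenchyme library was allowed a peak, while leaving out a library, which loosens the rule, gave 5510 to 8834. Host genes numbered 2441, 3905 with 1 mesenchyme library allowed and 2924 to 4167 with a library left out. With peaks of at least 300 bp, there were 3441 regions in 2046 genes, and a 50 bp overlap for merging gave 4419. The share on chromosome X was 1.83%, and 1.45% with 1 mesenchyme library allowed. The share in a first intron was 28.8%, and 32.0% with peaks of at least 300 bp. Without Fgfr2, chosen after seeing the data, cleft genes had 6.19% in place of 3.98% and Fgf genes 5.75% in place of 2.63%.

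Between libraries, the differences on X (0.292 points, 0.213 to 1.03 over the settings) and in first introns (0.570 points) kept their direction. Motif differences turned for KLF (-0.207) and PITX (-0.0181) in regions of 1 library, for NFI (0.0173) with peaks of at least 300 bp, and with a library left out for TFAP2 (-0.199 to 0.0799), HOMEO (-0.0419 to 0.0116) and IRF (-0.0157 to 0.000671). In the regions, GC weighting turned KLF to 1.03, FOX to -0.731 and CTCF to -0.00973, and a 400 bp window turned HOMEO to 0.404 and IRF to -0.0492. The cause was not tested.

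Same-numbered libraries deviated together with correlations of 0.899, 0.758 and 0.0503, and epithelium 3 correlated best with mesenchyme 2 (0.172). These values do not settle whether the numbers mark pairs, and the main tests did not pair the libraries. With the replicate number as a block the difference on X stayed at 0.292 points with an exact sign-flip p of 0.25, the smallest that 3 pairs allow. For GRHL, TEAD and RUNX the exact sign-flip p was 0.25 as well.

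The depth is unknown, and no value here gives the reads behind a peak.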
